A study of Homo sapiens with 3 samples.

Results

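The proteasome is the barrel-shaped protease that breaks down ubiquitin-tagged proteins, and its subunits and assembly factors carry gene symbols that begin with PSM. The genes described here were taken by symbol alone: PSMA, PSMB, PSMC, PSMD, PSME, PSMF and PSMG followed by a number, without PSMB8 and PSMB9. This gave 44 genes of the 16149 listed in at least one library, and all 44 had a mean level of at least 1 RPKM, as did 11370 genes in all. RPKM is the number of reads of a gene divided by its length and by the reads of the library, so that levels of different genes may be compared.

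RNA was sequenced from 3 cultured lines of human hepatocellular carcinoma, with 1 library each. The parent is HCCLM3 according to the labels, which give it a low ability to metastasise, whereas the methods of the study name its red fluorescent derivative HCCLM3-R and give it a high metastatic potential. Subclone 1 was labelled as more metastatic with lung as its target, and subclone 2 as metastatic to lung and celiac lymph node alike. Both subclones carry the HCCLM3 name and were grown in DMEM like the parent; the study derived its clones from single cells of metastases in nude mice, and which of them were sequenced is not named in the labels.

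Library totals, as worked out from the RPKM, were 4488825 reads (parent), 4609696 reads (subclone 1) and 4725150 reads (subclone 2), and a proteasome gene held between 26 and 1589 reads. Of 8 hepatocyte markers, 5 had a mean of at least 1 RPKM; their summed level was 12.5 RPKM in the parent against 99.7 in subclone 1 and 88.7 in subclone 2, and TTR was listed at 0 in the parent and subclone 1. The 5 were, in the order parent, subclone 1 and subclone 2, ALB (2.46, 49.5 and 68.8 RPKM), AFP (2.41, 4.16 and 4.27), APOB (0.3, 1.23 and 4.17), FGB (1.66, 14.5 and 5.6) and TF (5.71, 30.3 and 5.88). Some markers of other cell types also differed between the lines. Of 6 fibroblast markers 3 passed 1 RPKM, with DCN at 0.773, 4.42 and 2.75 RPKM, LUM at 10.1, 24 and 21 and COL3A1 at 4.42, 2.21 and 0.463 (summed 15.3, 30.6 and 24.2), while COL1A1 was at 0.338, 0.403 and 0.0357. Of 5 leukocyte markers 2 passed, CD68 at 75.3, 112 and 99.6 RPKM and CD79A at 7.79, 11.9 and 10.3 (summed 83.1, 124 and 109.9), and of 4 endothelial markers 2 passed, PECAM1 at 3.33, 9.81 and 4.46 RPKM and KDR at 1.36, 1.93 and 3.08 (summed 4.69, 11.7 and 7.54), while the defining markers PTPRC and CDH5 stayed at or below 0.0836 and 0.0525 RPKM. The part of these marker differences in the results was not tested. With 1 library per line no test between lines was possible. Intervals are 95% intervals of the read counts, cover counting error only, and compare libraries rather than cell lines.

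The 26S proteasome consists of a 20S core and a 19S regulatory particle. The core is a stack of rings of alpha subunits (PSMA) and beta subunits (PSMB), and the beta subunits PSMB5, PSMB6 and PSMB7 carry the proteolytic sites. The 19S particle recognises ubiquitin, removes it, and unfolds and feeds the substrate into the core with its ring of ATPases (PSMC); the other 19S subunits are PSMD genes. Dedicated chaperones (PSMG and some PSMD genes) assemble the complex, and the activators PSME1 to PSME4 may cap the core in place of the 19S particle. In cells exposed to interferon-gamma, PSMB8, PSMB9 and PSMB10 replace PSMB5, PSMB6 and PSMB7 to form the immunoproteasome, and PSME1 and PSME2 form the activator PA28, which favours the supply of peptides to class I molecules.

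The promoters of 5 genes are printed here because the results turn on these genes: PSME1, the only proteasome gene at least 1.5-fold higher in both subclones, its partner PSME2, the immunoproteasome subunit PSMB10, and PSMD6 and PSMD14, which were among the lowest ratios. Each is the RefSeq sequence of GRCh38.p14, 5′ to 3′ on the strand of the gene, from 250 bases before the gene start for 300 bases. PSME1 lies at chr14:24135944-24136243 on the plus strand, PSME2 at chr14:24146561-24146860 on the minus strand, PSMB10 at chr16:67936801-67937100 on the minus strand, PSMD6 at chr3:64023445-64023744 on the minus strand and PSMD14 at chr2:161308175-161308474 on the plus strand. Capitals mark the core of the interferon-stimulated response element (GAAA, then 2 bases of any kind, then GAAA, on either strand) in PSME1, PSME2 and PSMB10, and the ETS core CCGGAAG in PSMD6 and PSMD14.
PSME1: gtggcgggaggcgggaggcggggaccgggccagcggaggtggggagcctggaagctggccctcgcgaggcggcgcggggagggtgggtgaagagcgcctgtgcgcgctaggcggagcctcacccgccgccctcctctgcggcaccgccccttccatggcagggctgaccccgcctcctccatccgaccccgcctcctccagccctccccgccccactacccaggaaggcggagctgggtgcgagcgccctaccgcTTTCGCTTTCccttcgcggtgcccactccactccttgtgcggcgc
PSME2: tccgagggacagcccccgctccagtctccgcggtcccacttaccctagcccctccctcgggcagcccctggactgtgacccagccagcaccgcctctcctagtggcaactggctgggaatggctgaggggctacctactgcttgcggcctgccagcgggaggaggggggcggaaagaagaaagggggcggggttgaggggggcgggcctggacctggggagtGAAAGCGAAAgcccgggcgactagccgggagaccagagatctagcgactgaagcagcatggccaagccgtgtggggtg
PSMB10: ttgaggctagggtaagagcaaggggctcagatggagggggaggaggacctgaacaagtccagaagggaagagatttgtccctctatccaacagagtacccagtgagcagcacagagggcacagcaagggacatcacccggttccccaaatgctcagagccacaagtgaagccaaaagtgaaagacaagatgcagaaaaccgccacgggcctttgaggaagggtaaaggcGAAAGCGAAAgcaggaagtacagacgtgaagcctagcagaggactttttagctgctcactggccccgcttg
PSMD6: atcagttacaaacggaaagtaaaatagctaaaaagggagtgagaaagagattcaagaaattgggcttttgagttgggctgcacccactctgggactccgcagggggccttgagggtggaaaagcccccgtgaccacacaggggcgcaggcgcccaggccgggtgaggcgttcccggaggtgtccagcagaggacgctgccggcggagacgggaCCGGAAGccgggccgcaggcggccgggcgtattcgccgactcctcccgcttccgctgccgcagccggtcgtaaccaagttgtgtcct
PSMD14: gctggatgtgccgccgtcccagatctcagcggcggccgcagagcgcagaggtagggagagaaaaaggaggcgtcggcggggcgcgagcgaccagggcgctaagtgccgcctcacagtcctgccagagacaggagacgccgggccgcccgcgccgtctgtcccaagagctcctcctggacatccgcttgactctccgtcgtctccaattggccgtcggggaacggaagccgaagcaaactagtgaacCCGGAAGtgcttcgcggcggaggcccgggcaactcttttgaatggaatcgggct

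The interferon-stimulated core, searched on both strands, was found in 996 of 27305 promoters (3.65%) and in those of 6 of the 38 proteasome genes with a promoter in the table, namely PSMA4, PSMB4, PSMB10, PSME1, PSME2 and PSMG4. In PSME1, PSME2, PSMB10 and PSMG4 the core had the same letters, GAAAGCGAAA, which stood in 30 of all promoters (0.110%). The letters were copied from the PSME2 promoter after values were seen, so PSME2 holds them by construction. The share of 0.110% is therefore no test of the proteasome genes. With the gene start counted as 0, these letters began at 5 in PSME1, on the opposite strand, at -28 in PSME2, at -21 in PSMB10 and at -33 in PSMG4. The ETS core CCGGAAG stood in 2913 promoters (10.7%) and in 12 of the 38 proteasome promoters; 9 of the 16 genes of the 19S particle held it and 0 of the 11 genes of the 20S core. CCAAT was found in 9747 promoters (35.7%) and in 17 of the 38. The antioxidant response element core TGACNNNGC, which NFE2L1 and NFE2L2 are known to bind within a longer element, was found in 3702 promoters (13.6%) and in 12 of the 38. PSMA7, PSMB1, PSMB6, PSMB7, PSMD4 and PSMG3 had no promoter sequence available and were not searched. These matches describe the letters in the window only.

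Proteasome genes were among the highly expressed genes in all 3 lines, and 28 of the 44 were at or above the 90th percentile of mean RPKM. The median level was 81.9 RPKM in the parent against 66.9 in subclone 1 and 68.3 in subclone 2, against medians of 10.8, 10.9 and 11.2 RPKM for all genes. Together they took 0.604%, 0.551% and 0.559% of the reads. The highest was PSMB4, a beta subunit without proteolytic site, at 268 RPKM in the parent (252 to 284), 276 in subclone 1 (260 to 292) and 297 in subclone 2 (281 to 314). The lowest was PSMG4, a partner of PSMG3 in assembly of the alpha ring, at 6.89 RPKM (4.61 to 9.89), 6.01 and 5.87, from 29, 26 and 26 reads. PSMA8, the alpha subunit of the testis, and PSMB11, the beta subunit of the thymus, were listed in no library.

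**Figure D1:**
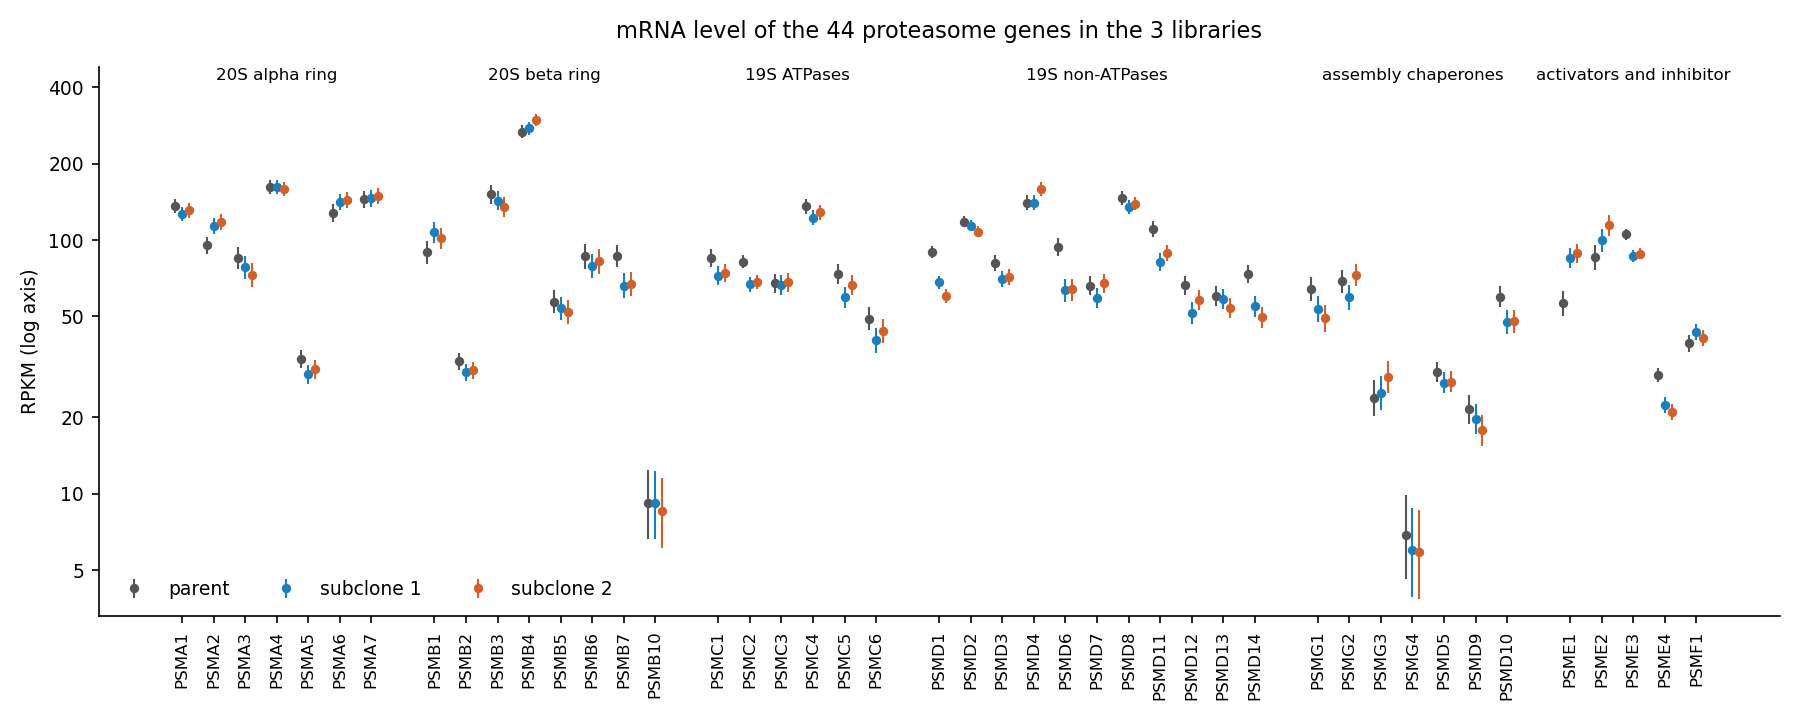
RPKM of the 44 proteasome genes (log axis) in the parent, subclone 1 and subclone 2, grouped by their place in the complex; points are the values of the single libraries and bars are 95% Poisson intervals of the reads. PSMB4 lies at the top in each library, at 268 to 297 RPKM, and PSMB10 and PSMG4 lie at the bottom, below 10 RPKM.

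Subclone 1 was compared with the parent first, to see whether the line directed to the lung differed in its proteasome genes. Ratios are log2 of (RPKM + 0.1) in one library over the same in the other. Most proteasome genes were slightly lower in subclone 1: 34 of 44 had a ratio below 0, against 49.6% of all genes, and their median was -0.13 against 0.00 for all genes. Sizes were small. PSME1 was the single gene at least 1.5-fold higher (11.6% of all genes were), and 0 genes were at least 1.5-fold lower (7.46% of all genes were). At a smaller limit, a log2 ratio of 0.32 in size, 1 gene was higher (22.9% of all genes) and 8 were lower (18.9%), namely PSMB7, PSMD1, PSMD6, PSMD10, PSMD11, PSMD12, PSMD14 and PSME4, so that the share lower at this limit, 18.2%, was near that of all genes. PSME1 lay close to the 1.5-fold line in subclone 1: its log2 ratio was 0.59, against 0.58 at the line, and it was 0.58 with the libraries rescaled to the same sum or a pseudocount of 1, 0.54 after division by GAPDH and 0.46 after division by ACTB.

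Subclone 2 against the parent gave a like picture with the same parental library in both comparisons. Here 31 of 44 genes had a ratio below 0, against 46.5% of all genes, with a median of -0.13 against 0.04. PSME1 was again the one gene at least 1.5-fold higher (12.7% of all genes) and 0 were at least 1.5-fold lower (7.3%). PSME1 and PSME2 were higher by the smaller limit (24.9% of all genes), and 7 genes were lower by it (17.8%): PSMB7, PSMD1, PSMD6, PSMD10, PSMD14, PSME4 and PSMG1. PSMD6 in both subclones, and PSMD1 and PSMD14 in subclone 2, stood just short of 1.5-fold lower, and in subclone 2 these 3 passed it once ratios were centred on the median of all genes.

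Between the subclones the proteasome genes lay close together. Of 44 genes, 15 were lower in subclone 2 than in subclone 1 (43.5% of all genes), and the median was 0.03, as it was for all genes. The count of 15 moved with the scaling. It was 26 after centring on the median of all genes (50% of all genes) and 25 after division by the upper quartile (49.0%). Division by ACTB gave 3 (24.6%) and division by GAPDH 5 (25.6%). Of the 44, 0 were at least 1.5-fold higher (4.75% of all genes) or lower (4.11%), and 0 passed the smaller limit upwards (13.0%) or downwards (10.4%). The spread of the log2 ratios, as their SD over genes, was 0.107 for the proteasome genes and 0.439 for all genes; against the parent it was 0.221 and 0.253 for the proteasome genes and 0.638 and 0.668 for all genes. The set of all genes holds many of lower level, and the part of level in this spread was not tested. Whether a lower level means less RNA per cell or fewer cells that hold it cannot be told apart in bulk RNA.

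**Figure D2:**
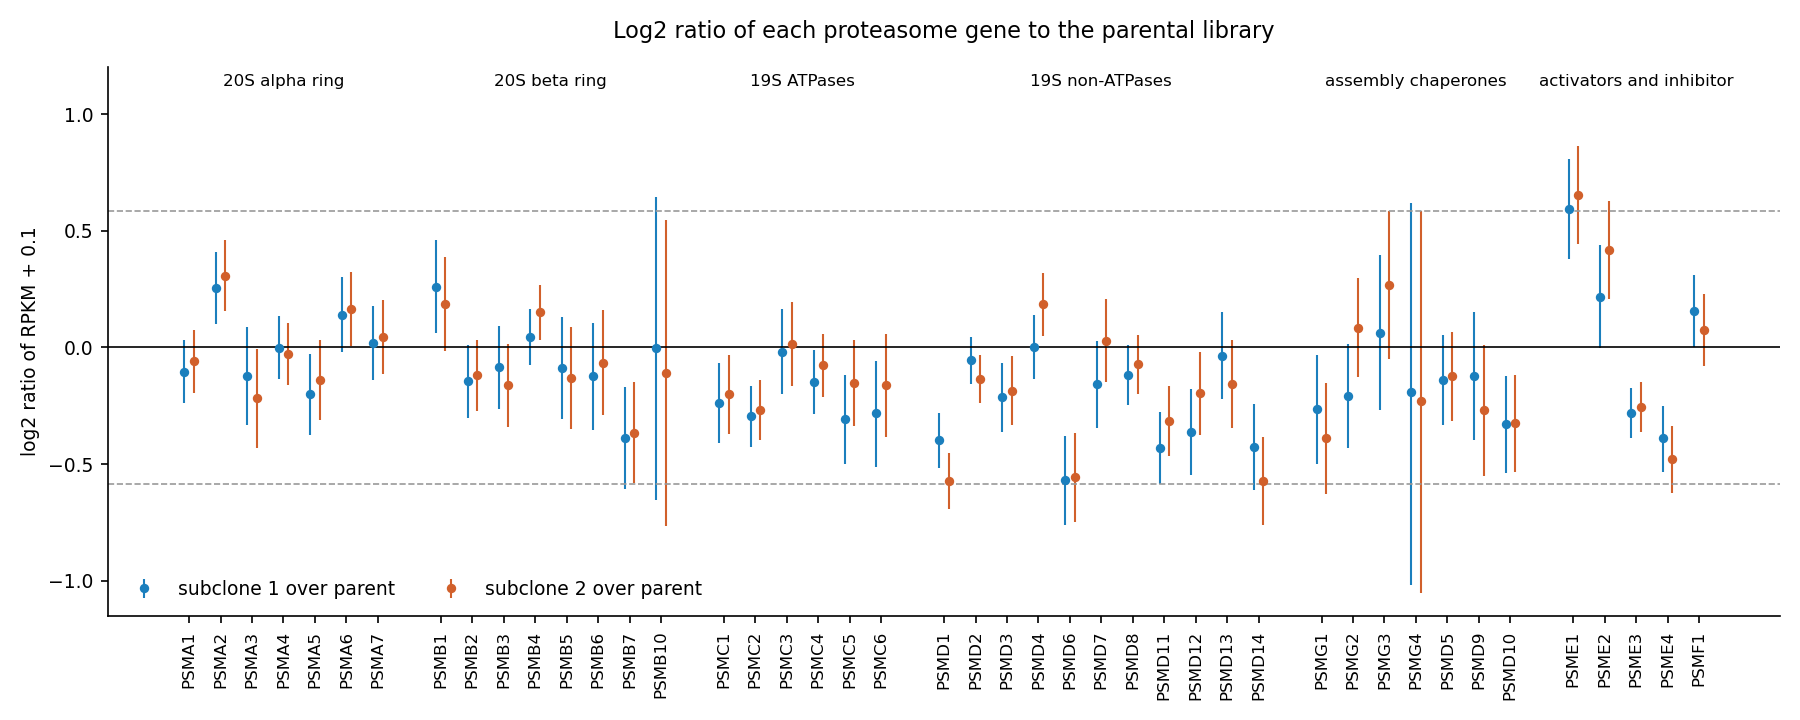
Log2 ratio of (RPKM + 0.1) of each proteasome gene in subclone 1 and subclone 2 over the parent; points are ratios of 2 libraries, bars are 95% intervals of the read ratio, and dashed lines mark 1.5-fold. Only PSME1 lies above the upper line, and most 19S genes lie below 0 in both subclones.

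The subcomplexes differed in their medians. The alpha ring was level with the parent (0.00 in subclone 1 and -0.03 in subclone 2) and the beta ring slightly lower (-0.09 and -0.11). Lower medians were found for the 19S ATPases (-0.26 and -0.16), the other 19S subunits (-0.21 and -0.19) and the assembly chaperones (-0.19 and -0.23), while the activators and inhibitor were at 0.15 and 0.08. Summed over its 15 genes, the 20S core was at 1568 RPKM in the parent against 1564 in subclone 1 and 1581 in subclone 2. The 17 genes of the 19S particle taken here by symbol summed to 1542, 1327 and 1371 RPKM. This leaves out the 19S subunits ADRM1 (83.3, 66.6 and 66.2 RPKM) and SHFM1 (139, 187 and 199 RPKM), whose symbols do not begin with PSM. ADRM1 was lower in both subclones and SHFM1 higher. Without these subunits, the sum of 19S genes per sum of 20S genes was 0.983 in the parent against 0.849 in subclone 1 and 0.867 in subclone 2. In pooled reads, the 20S genes were at 0.987 of the parent in subclone 1 (0.958 to 1.017) and 1.000 in subclone 2 (0.971 to 1.030), and the 19S genes at 0.859 (0.837 to 0.881) and 0.874 (0.853 to 0.896). These pooled intervals did not overlap, but they cover counting error of the summed reads only and not the spread between genes. Gene by gene the sets overlapped. In subclone 1 the log2 ratios ran from -0.39 to 0.26 (20S) and from -0.57 to 0.00 (19S). In subclone 2 they ran from -0.36 to 0.31 and from -0.57 to 0.18. The 19S genes are longer, with a median of 1618 bases against 1019 for the 20S genes; over all genes of at least 30 RPKM the median log2 ratio of subclone 1 over the parent was 0.00 for 308 genes of 800 to 1200 bases, -0.05 for 311 genes of 1200 to 1600 bases and -0.02 for 585 genes of 1600 to 2400 bases, and that of subclone 2 was 0.05, -0.00 and 0.00. The part of length in the 19S difference was not tested beyond this.

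Alpha subunits form the outer rings and the gate of the core. Their highest level was that of PSMA4, at 162, 162 and 159 RPKM in the parent, subclone 1 and subclone 2, and their lowest that of PSMA5, at 34.1, 29.6 and 30.9 RPKM. The highest alpha subunit was 4.76, 5.48 and 5.15 times the lowest in the 3 libraries, although the ring holds each in equal number. PSMA2 had the highest ratio among them. It was at 95.4 RPKM in the parent (88.1 to 103), 114 in subclone 1 (106 to 122) and 118 in subclone 2 (110 to 126), 1.19-fold (1.07 to 1.33) and 1.24-fold (1.11 to 1.38) higher in the subclones. PSMA7, which may be replaced by PSMA8 in the testis, was at 145, 147 and 149 RPKM with overlapping intervals. PSMA3 stood at 85.0, 78.1 and 73.0 RPKM, PSMA6 at 128, 141 and 144 RPKM, and PSMA1 at 137, 127 and 131 RPKM. The ratios of these 3 lay between -0.22 and 0.16.

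Beta subunits held most of the core's spread in level, from PSMB4 down to PSMB10, 29.1-fold in the parent, 30.2-fold in subclone 1 and 34.9-fold in subclone 2. PSMB5, the chymotrypsin-like subunit, was at 57.2 RPKM in the parent (51.4 to 63.5), 53.8 in subclone 1 (48.2 to 59.8) and 52.2 in subclone 2 (46.8 to 58.0). PSMB6, the caspase-like subunit, was at 86.3, 79.2 and 82.5 RPKM. Neither PSMB5 nor PSMB6 had a ratio whose counting interval left out 1. PSMB7, the trypsin-like subunit, was lower in both subclones, at 86.7 RPKM in the parent (78.4 to 95.7) against 66.2 (59.1 to 74.1) and 67.3 (60.2 to 75.1), or 0.764-fold (0.656 to 0.889) and 0.776-fold (0.668 to 0.902). PSMB1, which has no proteolytic site, was at 89.5, 107 and 102 RPKM, one of the 3 highest ratios in subclone 1, at 1.2-fold (1.04 to 1.38). PSMB10 gave too few reads for a firm ratio. It was at 9.18 RPKM in the parent (6.62 to 12.4), 9.15 in subclone 1 (6.62 to 12.3) and 8.52 in subclone 2 (6.11 to 11.6), from 42, 43 and 41 reads, and its fold in subclone 1 was 0.997 (0.636 to 1.56).

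The immunoproteasome subunits PSMB8 and PSMB9, which the choice of genes left out, are the counterparts of PSMB10. PSMB8 was at 7.93 RPKM in the parent (6.0 to 10.3), 12.9 in subclone 1 (10.4 to 15.7) and 11.9 in subclone 2 (9.56 to 14.6). PSMB9 was at 4.25 RPKM (2.60 to 6.57), 13.7 (10.6 to 17.4) and 11.5 (8.72 to 14.9), so that the parent was lowest in both genes and its intervals for PSMB9 did not overlap those of the subclones. The fold over the parent was 1.62 (1.16 to 2.30) and 1.5 (1.06 to 2.13) for PSMB8 and 3.21 (1.92 to 5.60) and 2.71 (1.60 to 4.76) for PSMB9. Reads were few, at 57, 95 and 90 for PSMB8 and 20, 66 and 57 for PSMB9. PSMB10 was at 0.997 (0.636 to 1.56) and 0.927 (0.588 to 1.46), intervals too wide to call it level or changed. In each line the constitutive subunits held most of the RNA: PSMB8, PSMB9 and PSMB10 made up 8.49% of the summed RPKM of all 6 proteolytic subunits in the parent against 15.2% in subclone 1 and 13.6% in subclone 2. The level of PSMB9 per PSMB6 was 0.0492, 0.172 and 0.140, and that of PSMB10 per PSMB7 was 0.106, 0.138 and 0.126, the latter with PSMB7 lower in the subclones.

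**Figure D3:**
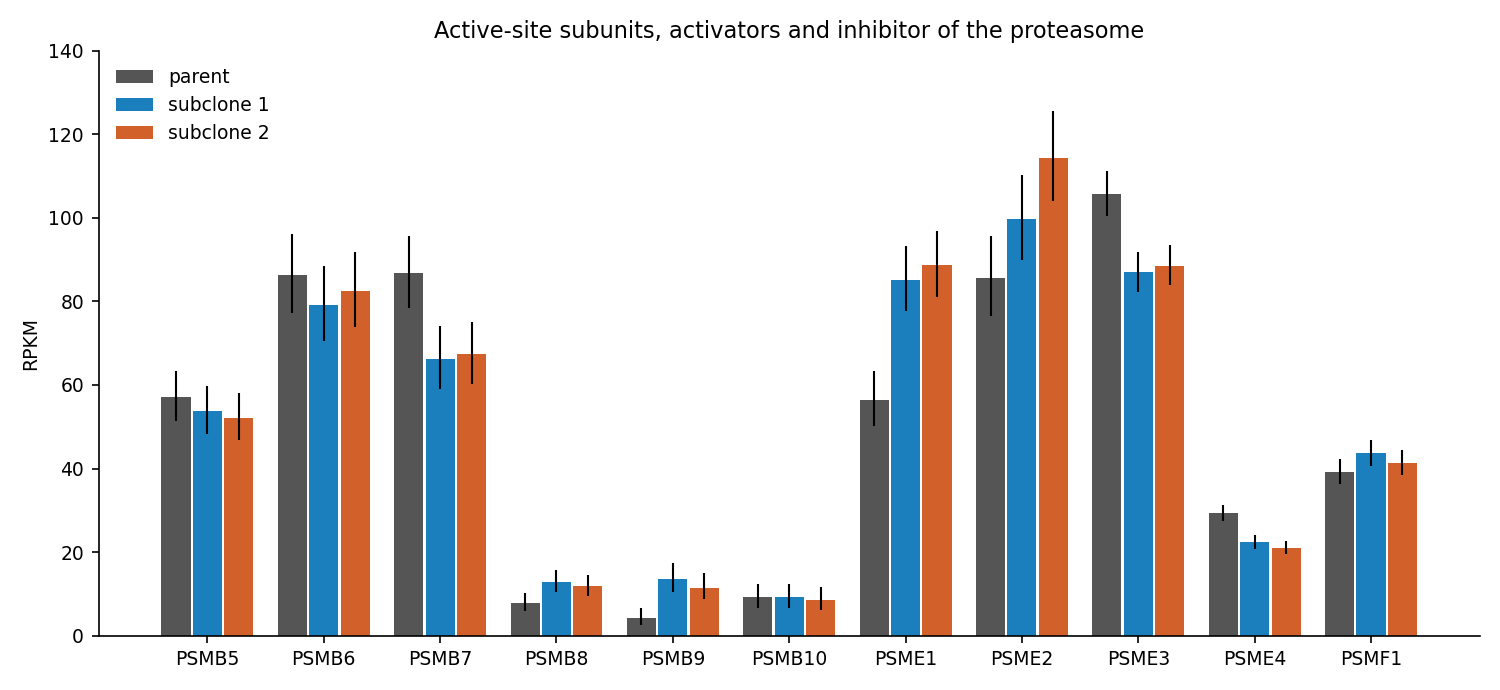
RPKM of the proteolytic beta subunits of the constitutive (PSMB5, PSMB6, PSMB7) and immunoproteasome (PSMB8, PSMB9, PSMB10), the activators and the inhibitor in the 3 libraries; bars are single libraries with 95% Poisson intervals. PSME1 stands at 56.5 RPKM in the parent against 85.2 and 88.8. PSMB8 and PSMB9 are higher in the subclones at low levels, and PSMB10 has similar values with wide intervals.

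Among the activators the PA28 pair and the nuclear activators went in opposite directions. PSME1, the alpha chain of PA28, was at 56.5 RPKM in the parent (50.3 to 63.2), 85.2 in subclone 1 (77.6 to 93.3) and 88.8 in subclone 2 (81.2 to 96.9), from 301, 466 and 498 reads. The parent was the low one and its interval lay below both others. The fold was 1.51 (1.30 to 1.75) in subclone 1 and 1.57 (1.36 to 1.82) in subclone 2. PSME2, the beta chain, was at 85.7 RPKM (76.6 to 95.7), 99.7 (89.9 to 110) and 114 (104 to 125), 1.16-fold (1.00 to 1.35) and 1.33-fold (1.15 to 1.55) higher. Only the interval of subclone 2 lay above that of the parent. PSME1 per PSME2 was 0.659 in the parent against 0.854 in subclone 1 and 0.776 in subclone 2. RefSeq names 6 pseudogenes after PSME2.

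PSME3, the nuclear activator PA28-gamma, was at 106 RPKM in the parent (100 to 111), 87.0 in subclone 1 (82.3 to 91.8) and 88.6 in subclone 2 (83.9 to 93.4), which is 0.823-fold (0.763 to 0.886) and 0.838-fold (0.778 to 0.902). PSME4, the large nuclear activator PA200, was at 29.4 RPKM (27.5 to 31.3), 22.4 (20.8 to 24.1) and 21.1 (19.5 to 22.7), which is 0.763-fold (0.691 to 0.841) and 0.718-fold (0.650 to 0.792). Both were highest in the parent, with intervals apart from those of the subclones. PSMF1, the inhibitor PI31, was at 39.2, 43.6 and 41.3 RPKM, with overlapping intervals in the 3 libraries. Its fold was 1.11 in subclone 1, with an interval just above 1 (up to 1.24), and 1.05 in subclone 2 (0.946 to 1.17).

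All 6 ATPases of the 19S base were lower in subclone 1 (49.6% of all genes were) and 5 of 6 in subclone 2 (46.5%), and 0 of 6 were lower in subclone 2 than in subclone 1 (43.5%). PSMC4 was the highest, at 136, 123 and 129 RPKM in the parent, subclone 1 and subclone 2. PSMC6 was the lowest, at 49.0, 40.3 and 43.8 RPKM. The ring was more even than the alpha ring, with the highest level 2.77, 3.05 and 2.94 times the lowest. PSMC2 was at 82.3, 67.1 and 68.3 RPKM, 0.815-fold (0.745 to 0.893) and 0.831-fold (0.759 to 0.908), and PSMC5 at 73.8, 59.6 and 66.4 RPKM, 0.808-fold (0.707 to 0.922) and 0.900-fold (0.792 to 1.02). PSMC3 was level, at 67.6, 66.8 and 68.3 RPKM. PSMC1 was at 85.3, 72.4 and 74.2 RPKM, and RefSeq names 13 pseudogenes after it. In all, 21 of the 44 genes have such pseudogenes, 52 together, of which 0 are listed in the libraries, and how shared reads were counted is not given in the sources used here.

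The other 19S subunits held the lowest ratios of all. PSMD6, a subunit of the lid, was at 94.0 RPKM in the parent (86.3 to 102), 63.4 in subclone 1 (57.2 to 70.0) and 63.9 in subclone 2 (57.8 to 70.5), from 552, 382 and 395 reads. The parent stood apart, and the fold was 0.674 (0.590 to 0.769) and 0.680 (0.596 to 0.775). PSMD14, the deubiquitinase that cuts the ubiquitin chain off the substrate, was at 73.8 RPKM (67.8 to 80.1), 54.9 (49.9 to 60.3) and 49.6 (44.9 to 54.7). Its fold over the parent was 0.744 (0.655 to 0.845) and 0.672 (0.590 to 0.765). PSMD1, one of the large scaffold subunits of the base, was at 89.7 RPKM (85.0 to 94.7), 68.1 (64.0 to 72.4) and 60.4 (56.6 to 64.4). It was at 0.759-fold (0.699 to 0.823) and 0.673-fold (0.619 to 0.732), and at 0.887-fold in subclone 2 over subclone 1 (0.811 to 0.969), the lowest ratio between the subclones.

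PSMD11, a lid subunit that holds the particle to the alpha ring, was at 111 RPKM (103 to 119), 82.3 (75.8 to 89.1) and 89.0 (82.4 to 96.0), and PSMD12, another lid subunit, at 66.4, 51.7 and 58.0 RPKM. For PSMD11 the parent lay above both subclones, with folds of 0.742 (0.667 to 0.826) and 0.803 (0.724 to 0.891). The ubiquitin receptor PSMD4 had the highest ratio in subclone 2 among the 17 genes of the particle taken here by symbol. Of these, PSMC3 and PSMD7 were not below the parent there either. It stood at 140 RPKM in the parent (131 to 150), 141 in subclone 1 (131 to 150) and 160 in subclone 2 (150 to 170), 1.14-fold higher in subclone 2, with a lower bound of 1.04. PSMD2, the other large scaffold subunit, was at 118, 114 and 108 RPKM from 1589, 1571 and 1524 reads. Its fold was 0.963 in subclone 1 (0.897 to 1.03) and 0.911 in subclone 2 (0.849 to 0.978). These bounds are narrow but cover counting error only. PSMD7, the partner of PSMD14 in the lid, was at 66.2, 59.3 and 67.5 RPKM and did not share its lower level in subclone 2, with a fold of 1.02 (0.902 to 1.15). PSMD3, PSMD8 and PSMD13 had ratios between -0.21 and -0.04 in both subclones.

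Of the 7 assembly chaperones, 6 were lower in subclone 1 (49.6% of all genes) and 5 in subclone 2 (46.5%). PSMG1 and PSMG2 form a dimer that builds the alpha ring, but their levels did not run in parallel. PSMG1 was at 64.3 RPKM in the parent (57.6 to 71.7), 53.6 in subclone 1 (47.5 to 60.2) and 49.1 in subclone 2 (43.4 to 55.4), and PSMG2 at 68.7 (61.7 to 76.3), 59.5 (53.1 to 66.5) and 72.9 (65.9 to 80.5). In subclone 2 PSMG1 was at 0.763 of the parent (0.647 to 0.900) and PSMG2 at 1.06 (0.916 to 1.23). PSMG2 also had the highest ratio of subclone 2 over subclone 1, at 1.22-fold (1.05 to 1.43). PSMG3 was at 24, 25 and 28.8 RPKM. The chaperones of the 19S base were PSMD5 at 30.2, 27.4 and 27.7 RPKM, PSMD9 at 21.5, 19.8 and 17.8 RPKM, and PSMD10. PSMD10, known as gankyrin and described as an oncoprotein of liver cancer, was at 59.9 RPKM in the parent (54.3 to 65.8), 47.6 in subclone 1 (42.8 to 52.9) and 47.8 in subclone 2 (43.0 to 53.0). It was lower in both subclones, at 0.795-fold (0.688 to 0.919) and 0.798-fold (0.692 to 0.921).

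The 9 proteasome genes with other names had a median of -0.21 and -0.17, and 0 of them passed 1.5-fold in a comparison. Over the parent, 11.6% and 12.7% of all genes were at least 1.5-fold higher and 7.46% and 7.3% lower. They were split in direction, from -0.35 to 0.42 in subclone 1. Below 0 were 5 of 9 in subclone 1 (49.6% of all genes) and 6 in subclone 2 (46.5%). Their summed level was 506, 511 and 524 RPKM in the parent, subclone 1 and subclone 2. ADRM1, the other main ubiquitin receptor, was at 83.3, 66.6 and 66.2 RPKM, and the deubiquitinase UCHL5, which binds it, at 24.7, 19.4 and 21 RPKM. The parent was the highest in both. SHFM1, a small lid subunit, went the other way, at 139, 187 and 199 RPKM. POMP, the chaperone of the beta ring, was near level, at 30.5, 33.0 and 32.5 RPKM.

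The 44 genes lie on 17 chromosomes, with 7 each on chromosomes 14 and 17. Of the lower genes, PSMD1, PSMD14 and PSME4 are on chromosome 2, PSMD11 and PSMD12 on chromosome 17, PSMD6 on chromosome 3 and PSMD10 on chromosome X. For each gene, the 20 nearest genes on each side with a mean of at least 1 RPKM were taken in RefSeq order, a step chosen after the values were seen. The neighbours of PSMD1 had a median of -0.21 in subclone 1 and -0.50 in subclone 2, and 34 of these 40 genes were below 0 in subclone 2. The neighbours of PSMD14 had medians of -0.23 and -0.45. Those of PSME4 were at -0.10 and -0.33, and those of PSMD10 at -0.41 and -0.29. On chromosome 2 the genes around these 3 were thus lower in subclone 2 than in subclone 1, as the 3 genes were. The neighbours of PSMD11 (-0.14 and -0.12) and PSMD12 (0.08 and 0.09) on chromosome 17 were less low or not low.

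The neighbours of PSMD6 were uneven: in subclone 1 the 20 before it had a median of -0.45 and the 20 after it -0.10. PSMD6 itself was at -0.57, lower than either side. In subclone 1 PSMD14 was at -0.43 against -0.18 before and -0.24 after, and PSMD1 at -0.40 against -0.25 and -0.15. These genes were thus also lower than either side. PSME1 and PSME2 stood above their neighbours, whose medians were 0.08 and 0.02 for PSME1. For PSMB7 the neighbours were at -0.05 and 0.03, and for PSMG1 at -0.05 and 0.15, so that these genes were lower than the genes beside them. PSMA2 was level with its neighbours, which were at 0.21 and 0.25. Of the 44 genes, 36 were below the median of their neighbours in subclone 1 and 37 in subclone 2, by a median of -0.16 and -0.15, and 26 in subclone 2 over subclone 1. The share of all genes below their own neighbours was not worked out, so these counts cannot be read as particular to proteasome genes. The part of the neighbourhood in the ratio of a gene was not tested.

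**Figure D4:**
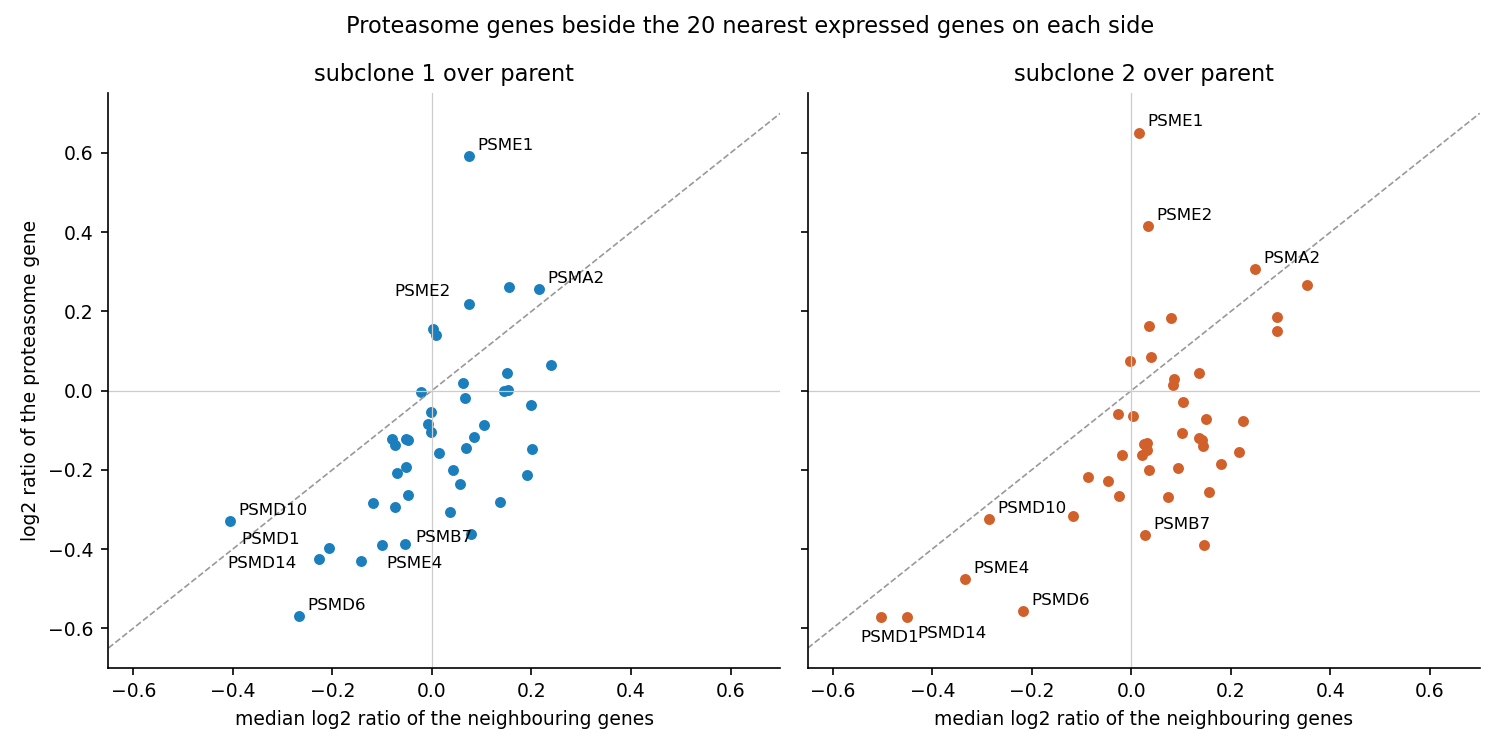
Log2 ratio of each of the 44 proteasome genes over the parent against the median log2 ratio of its 20 nearest expressed genes on each side, for subclone 1 and subclone 2; the dashed line marks equal values. Most points lie below the line and PSME1 lies far above it. In subclone 2 PSMD1 and PSMD14 lie at the lower left, low together with their neighbours. In subclone 1 PSMD6 lies lower than both, and PSMD10 has the lowest neighbour median, at -0.41.

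**Figure D5:**
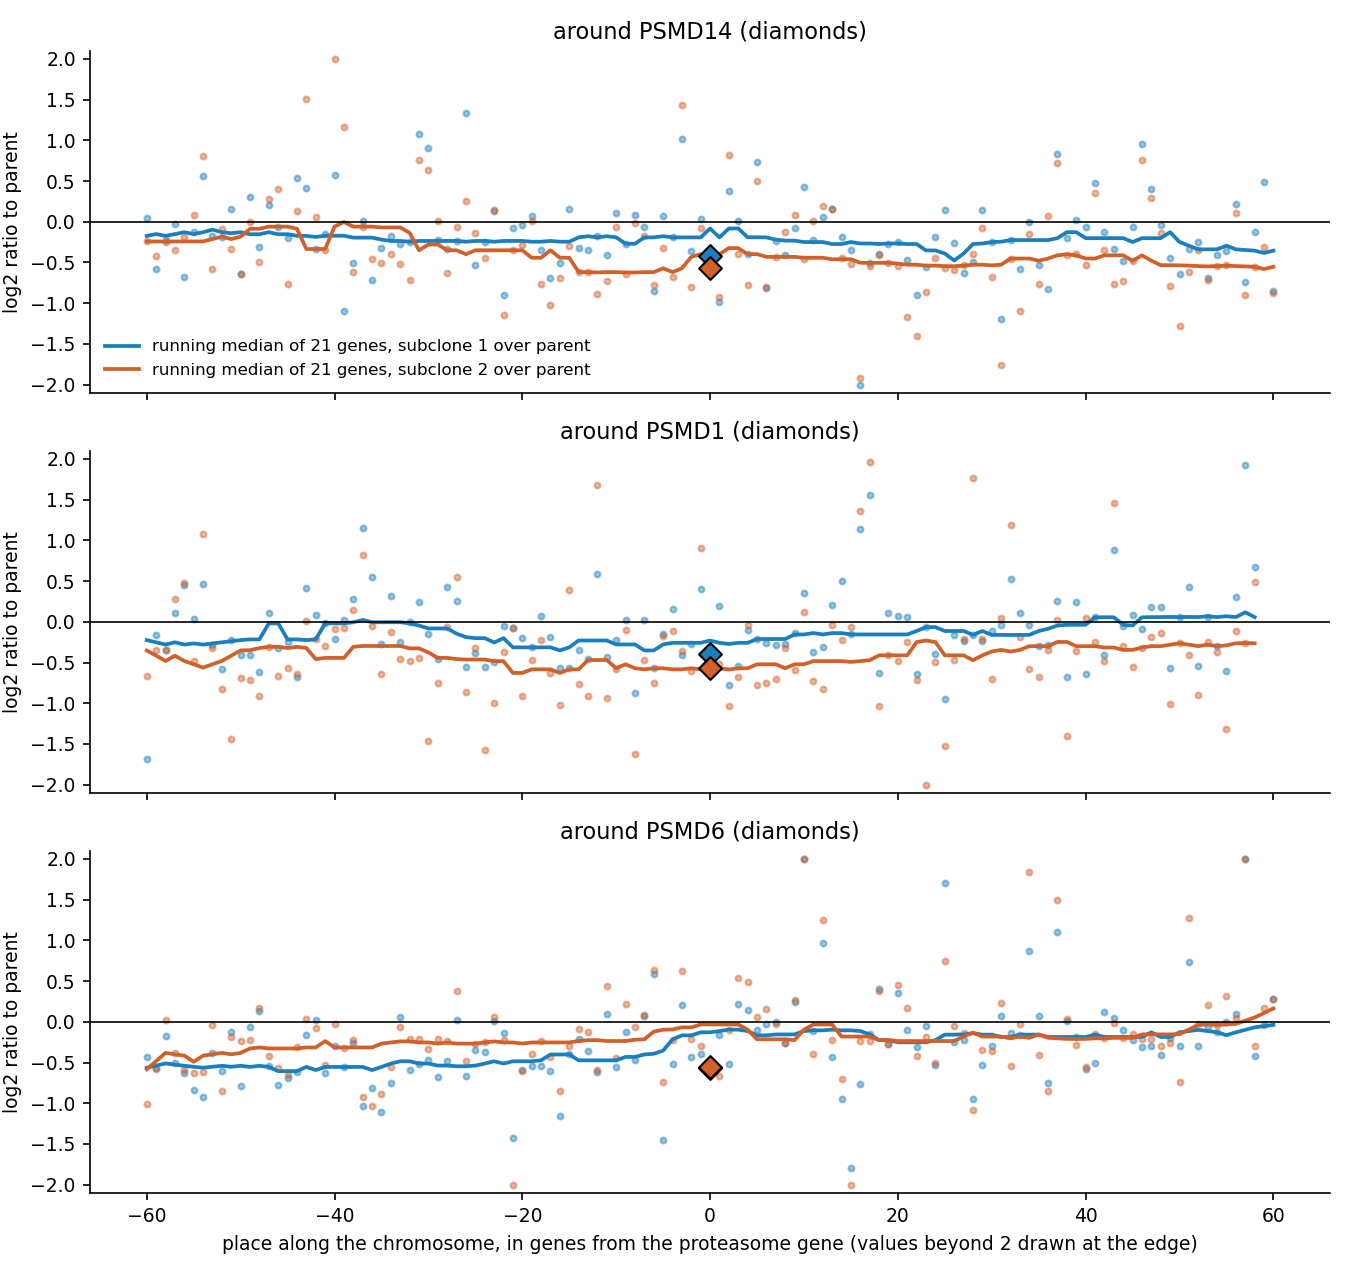
Log2 ratios over the parent of up to 60 expressed genes on each side of PSMD14, PSMD1 and PSMD6, in gene order, with running medians; diamonds are the proteasome genes. Around PSMD14 and PSMD1 the running medians stay below 0 near the gene and lower in subclone 2 than in subclone 1. The 20 genes on each side of PSMD6 had a median of -0.27 in subclone 1, against -0.23 for PSMD14 and -0.21 for PSMD1. The 10 genes on each side of PSMD6 had medians of -0.11 in subclone 1 and 0.02 in subclone 2, against -0.07 and -0.36 for PSMD14. PSMD6, PSMD14 and PSMD1 each lie below the median of the 20 genes on each side in both subclones.

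Genes that act with the proteasome were described in lists. NFE2L1, the factor that raises proteasome genes when the proteasome is inhibited, was at 36.3, 40.4 and 40.7 RPKM, while its list of 9 genes had medians of -0.15 and -0.18. Over the parent, 1 of the 9 was at least 1.5-fold higher in subclone 1 (11.6% of all genes) and 2 in subclone 2 (12.7%). In each subclone 1 was lower (7.46% and 7.3% of all genes). Counts this small cannot be read as particular to the list. MAFF, a small MAF partner, was at least 1.5-fold higher in both subclones (3.78, 6.92 and 9.49 RPKM) and MAFK in subclone 2 (5.59, 6.09 and 9.86 RPKM). NGLY1, the enzyme that removes sugar chains from NFE2L1, was at least 1.5-fold lower in subclone 1 (16.5, 10.9 and 12.1 RPKM), and NFE2L2, the related factor of the oxidative stress response, in subclone 2 (70.6, 50.7 and 42.5 RPKM). The 6 ubiquitin genes had medians of -0.04 and 0.02, and the 10 shuttle and p97 factors -0.17 and -0.10. Over the parent, 0 genes of either list were at least 1.5-fold higher (11.6% and 12.7% of all genes) or lower (7.46% and 7.3%).

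The peptide transport and class I list, the next step after the immunoproteasome, was higher in the subclones, with medians of 0.47 and 0.70 over the 8 of 9 genes past the filter. At least 1.5-fold higher were 3 of the 8 in subclone 1 (11.6% of all genes) and 4 in subclone 2 (12.7%), and 0 were lower (7.46% and 7.3% of all genes). B2M, the light chain of class I molecules, was at 479, 759 and 856 RPKM. It was at least 1.5-fold higher in both subclones, as were HLA-B (4.38, 17 and 10.6 RPKM) and HLA-C (17.3, 43.9 and 39.5 RPKM). TAP1, which carries peptides into the endoplasmic reticulum, reached 1.5-fold in subclone 2 only, at 4.42, 5.91 and 8.54 RPKM, while TAP2 was level at 5.77, 5.42 and 5.44 RPKM. The interferon response list had medians of 0.51 and 0.39 over 10 genes. Of these, 5 were at least 1.5-fold higher in subclone 1 (11.6% of all genes) and 3 in subclone 2 (12.7%), and 0 were lower (7.46% and 7.3%). IFIT1 (1.19, 2.89 and 3.61 RPKM), IRF1 and IRF7 (2.06, 3.81 and 3.82 RPKM) passed in both subclones, and GBP1 (5.41, 8.39 and 7.77 RPKM) and IRF9 (2.49, 5.24 and 3.36 RPKM) in subclone 1. Between the subclones, IRF9 and IFI6 (3.89, 4.79 and 2.95 RPKM) passed 1.5-fold with the lower level in subclone 2. IRF1, a factor that binds the interferon-stimulated core, was at 5.93, 9.12 and 11.7 RPKM. OAS1 was at 75.1, 65.1 and 65.9 RPKM, so not every gene of the list was higher. Of the 4 proteasome genes whose promoters hold GAAAGCGAAA, PSME1 was at 1.51-fold (1.30 to 1.75) and 1.57-fold (1.36 to 1.82) over the parent. PSME2 was at 1.16-fold (0.9997 to 1.35) in subclone 1, an interval that holds 1, and at 1.33-fold (1.15 to 1.55) in subclone 2. PSMB10 was at 0.997-fold (0.636 to 1.56) and 0.927-fold (0.588 to 1.46), and PSMG4 at 0.873-fold (0.494 to 1.54) and 0.852-fold (0.482 to 1.498). The 26 to 43 reads of PSMB10 and PSMG4 leave intervals too wide to call them level or changed. The part of these letters in the ratios was not tested.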

How the data were processed

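RNA libraries of 3 cell lines, 1 each, were made with a TruSeq kit, and the authors deposited RPKM values per gene. The submitters' processing notes name hg19; the aligner, counter, annotation and handling of strand and of shared reads are not given in the sources used here. Genes absent from a file were entered as 0. Whole reads were worked out from the RPKM through genes whose reads were equal in 2 libraries (653 and 625 of them) and the common step of 3474 low genes (88.4% on it). The files are sorted by reads, which set the multiple for 1243 genes. In all, 16095 of 16149 genes came out whole and the reads summed to 99.9% of each total. The procedure was checked on simulated libraries.

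Ratios are log2((RPKM + 0.1)/(RPKM + 0.1)), computed where the mean RPKM was 1 or more. Calls are by size (1.5-fold, the threshold used in the study to choose genes). Poisson and Clopper-Pearson intervals (95%) came from the reads. The members and lists were chosen with earlier results of these data known; the neighbours, the exact letters GAAAGCGAAA and the exclusion of chromosomes 2, 3 and X were chosen after values were seen. Values are given for members at least 1.5-fold changed, the 3 highest and 3 lowest ratios of each comparison, the highest and lowest of each subcomplex, the proteolytic, PSMG, PSME and PSMF genes, PSMA7, PSMA8, PSMB11 and PSMD10, and for listed genes and markers at least 1.5-fold changed; other genes named are examples. Promoters and gene order came from RefSeq GRCh38.p14. Other pseudocounts, scalings, filters, folds and memberships were tried. Python 3.11.15, numpy 2.4.6, pandas 2.3.3, scipy 1.17.1 and matplotlib 3.10.9 were used.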

Additional observations from a re-analysis of the deposited data

Results flagged for a closer look

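In 3 proteasome genes the ratio over the parent had opposite signs in the subclones, with 1 library each, and the difference was not tested. PSMG2 was at -0.21 in subclone 1 and 0.08 in subclone 2, a log2 ratio of 0.29 between the subclones. PSMD7 was at -0.16 and 0.03, a ratio of 0.19. PSMC3 was at -0.02 and 0.01, a ratio of 0.0322. Over the parent the counting intervals of all 3 genes held 1 in both subclones, so that neither sign is firm.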

How the results depend on the processing

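No paired analysis was possible because the 3 lines are represented by single libraries, and none could be left out for the same reason. The median of the 44 genes stayed within the median of the genes' counting intervals in 42 of 42 alternative values. This band is that of a single gene, so it is too wide to show small shifts of a median over 44 genes. Over the parent the median was negative under every scaling, between -0.26 and -0.11 (subclone 1) and between -0.17 and -0.07 (subclone 2). Between the subclones it was 0.03 as deposited, -0.01 after centring and 0.15 with ACTB, all within the band. Division by ACTB shifted the median of all genes to -0.13 in subclone 1 over the parent and to 0.16 between the subclones, and division by GAPDH to 0.15 between the subclones, while the proteasome median less that of all genes stayed at -0.14, -0.17 and -0.01. With ACTB, higher genes made up 42.7% in place of 60.8% of all genes past 1.5-fold in subclone 1, and 71.4% in place of 53.6% between the subclones (70.0% with GAPDH).

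The count at least 1.5-fold higher in subclone 1 went from 1 to 0 with a pseudocount of 1, rescaling to the same sum, ACTB, GAPDH, a 2-fold limit, or without PSMB10, PSME1 and PSME2, and to 3 with PSMB8 and PSMB9; the count lower went from 0 to 1 with ACTB or GAPDH and to 8 at the smaller limit. In subclone 2 the count higher went from 1 to 2 at the smaller limit or with PSMB8 and PSMB9, and to 0 at 2-fold or without PSMB10, PSME1 and PSME2; the count lower went from 0 to 2 with rescaling, 3 after centring and 7 at the smaller limit. The median of the activators and inhibitor in subclone 2 over the parent went from 0.08 to 0.25 without chromosomes 2, 3 and X, and between the subclones from 0.03 to 0.15 with ACTB and 0.14 with GAPDH. The other 213 medians of subcomplexes stayed within such limits, and 0 results reversed. A reversal could be called only for ratios whose limits left out 0.

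Depth limits PSMB10 and PSMG4 most, whose folds over the parent are known only within 0.482 to 1.56. The spread between cultures is unknown with 1 library per line.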

Other observations

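The letters GAAAGCGAAA stood in 30 promoters, and 24 of these genes were listed, 21 of them with a mean of at least 1 RPKM, the 4 proteasome genes included. Their median log2 ratio was 0.12 in subclone 1 and 0.16 in subclone 2 over the parent. In subclone 1, 3 were at least 1.5-fold higher (C19orf66, DDO and PSME1) and 2 lower (GRWD1 and MYD88); in subclone 2, 3 were higher (C19orf66, PSME1 and TAP1) and 0 lower. As shares of the 21 these are 14.3% higher and 9.52% lower in subclone 1, against 11.6% and 7.46% of all genes, and 14.3% higher and 0 lower in subclone 2, against 12.7% and 7.3%, so that the shares higher were near those of all genes. C19orf66 was at 3.54, 6.19 and 6.43 RPKM in the parent, subclone 1 and subclone 2, and MYD88 at 31.3, 16.9 and 25.7 RPKM. RNF31, which holds the letters too, was at 6.05, 5.77 and 5.51 RPKM. These genes were looked up after the values were seen, with letters copied from the PSME2 promoter.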
